A study of Mus musculus with 6 samples.

Results

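The genes described here are 10 core genes of autophagy, Ulk1, Atg13, Becn1, Wipi2, Atg5, Atg16l1, Atg7, Map1lc3b, Gabarapl1 and Sqstm1, read out of RNA sequencing of mouse lung tumors. They were taken by symbol from a given list, and all 10 were found among the 17987 genes of the normalized read count table. All 10 also passed the filter on low values that left 16640 genes for testing, for which 3 or more of the 6 libraries had to reach a value of 10. No core autophagy gene passed the test of a difference between tumors with wild-type and catalytically mutated Usp24. The intervals of all 10 lay within a 2-fold difference, given variances drawn toward a trend over all tested genes.

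Autophagy encloses cytoplasm, organelles or tagged proteins in a double membrane, the autophagosome, and delivers it to the lysosome for breakdown. A kinase complex built around Ulk1 starts the process, a lipid kinase complex containing Becn1 marks the membrane with the lipid PI3P, and a ubiquitin-like conjugation system then attaches LC3 and GABARAP proteins to the growing membrane. Cargo receptors such as Sqstm1, also called p62, bridge ubiquitin-tagged cargo and these proteins. Most of these steps are controlled on proteins and lipids, so RNA levels give the supply of components and not the rate of autophagy. USP24 is a deubiquitinase, an enzyme that removes ubiquitin from other proteins.

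The lung tumor specimens came from 3 mice with wild-type Usp24 (WT, numbered M1354, M1364, M1370) and from 3 mice with Usp24 C1695A (numbered M134, M145 and M164). Both groups carried Scgb1a1-rtTA, a doxycycline-dependent activator expressed from the promoter of a club cell gene, and a TetO-driven EGFR L858R transgene, an activated growth factor receptor that drives lung adenocarcinoma. Both received doxycycline at 0.5 g/l for 10 weeks. The C1695A allele, a knock-in made in C57BL/6J mice and studied in the homozygous state, replaces the catalytic cysteine. The column names call this group KO, but the allele is a missense change, so the level of Usp24 RNA does not check the labels. The growth text is the same for all 6 samples and lists the mutant allele for each, and the groups were taken from the genotype labels. Age, sex and the number of tumors in a specimen are not given in the sources used here.

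The libraries held 7167000 to 14650273 reads in the table, M164 the fewest. The surfactant gene Sftpc, made by alveolar type 2 cells, had the highest count in 4 of the 6 libraries, the other two being M1370 (Scd1) and M164 (mt-Co1). M164 stood apart, with 17.2% of its reads on mitochondrial genes against 1.74 to 3.10% in the others. All 9 detected heart muscle markers of 10 listed summed to 379 to 408 normalized counts in WT and 640 to 7916 in C1695A, with Ckmt2 at 0 in every WT library. The 8 detected adipose markers of 9 summed to 516 to 675 in WT, and to 739 in M134, 11654 in M145 and 193992 in M164. The 8 alveolar type 2 markers summed to 547177 to 622184 in WT and 172546 (M164) to 499356 in C1695A, and the 8 macrophage markers to 26377 to 41309 in WT and 5383 (M164) to 27194 in C1695A. The 8 B cell markers summed to 286 to 300.2 in WT, 230 in M134, 9533 in M145 and 3647 in M164. By an exact two-sided permutation test of the mean log2 level, heart muscle, skeletal muscle (1 of 10 markers detected) and adipose lists were higher and the alveolar type 2 list lower in C1695A with p = 0.1, the smallest that 3 against 3 allows, and the 9 other cell type lists had p of 0.2 to 1. The skeletal muscle marker, Myl1, did not pass the filter for testing. It had 4.16, 1.44 and 1.88 counts in WT and 5.07, 7.91 and 6767 in M134, M145 and M164. Outside M164 its order rests on values near the floor. Of the Y-linked genes, 3 of 4 were detected, and all 3 were at 0 in M1364 and M1370 and summed to 3259 to 3554 in the other libraries. The libraries without Y-linked reads were therefore all WT, so sex and genotype are partly confounded in every comparison here. The part of these differences in the values below was examined only by covariates and by leaving libraries out. The mean muscle and adipose levels were higher in every C1695A library than in every WT library. A fit with such a covariate therefore cannot separate the markers from the genotype. In whole specimens, fewer cells of a type and less RNA per cell cannot be told apart.

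The main comparison asked whether the supply of autophagy components differed between the genotypes. By limma-trend on log2(value + 1), with Benjamini-Hochberg adjustment over all 16640 genes, 0 of the 10 core genes passed an adjusted p of 0.05, where 0% of all genes did. At an unadjusted p of 0.05 the count was again 0 of 10, against 5.54% of all genes (922 genes, 2.61% higher and 2.93% lower in C1695A). On whole reads recovered from the table, 0 of the 10 were called by edgeR, where 0% of all genes passed the adjusted and 6.88% the unadjusted threshold. DESeq2 also called 0 of the 10, where 0.221% of all genes passed the adjusted and 8.25% the unadjusted threshold, and no core gene passed either unadjusted threshold. The lowest adjusted p of a core gene was 0.738 by limma, 0.696 by edgeR and 0.734 by DESeq2, in each case for Gabarapl1.

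**Figure D1:**
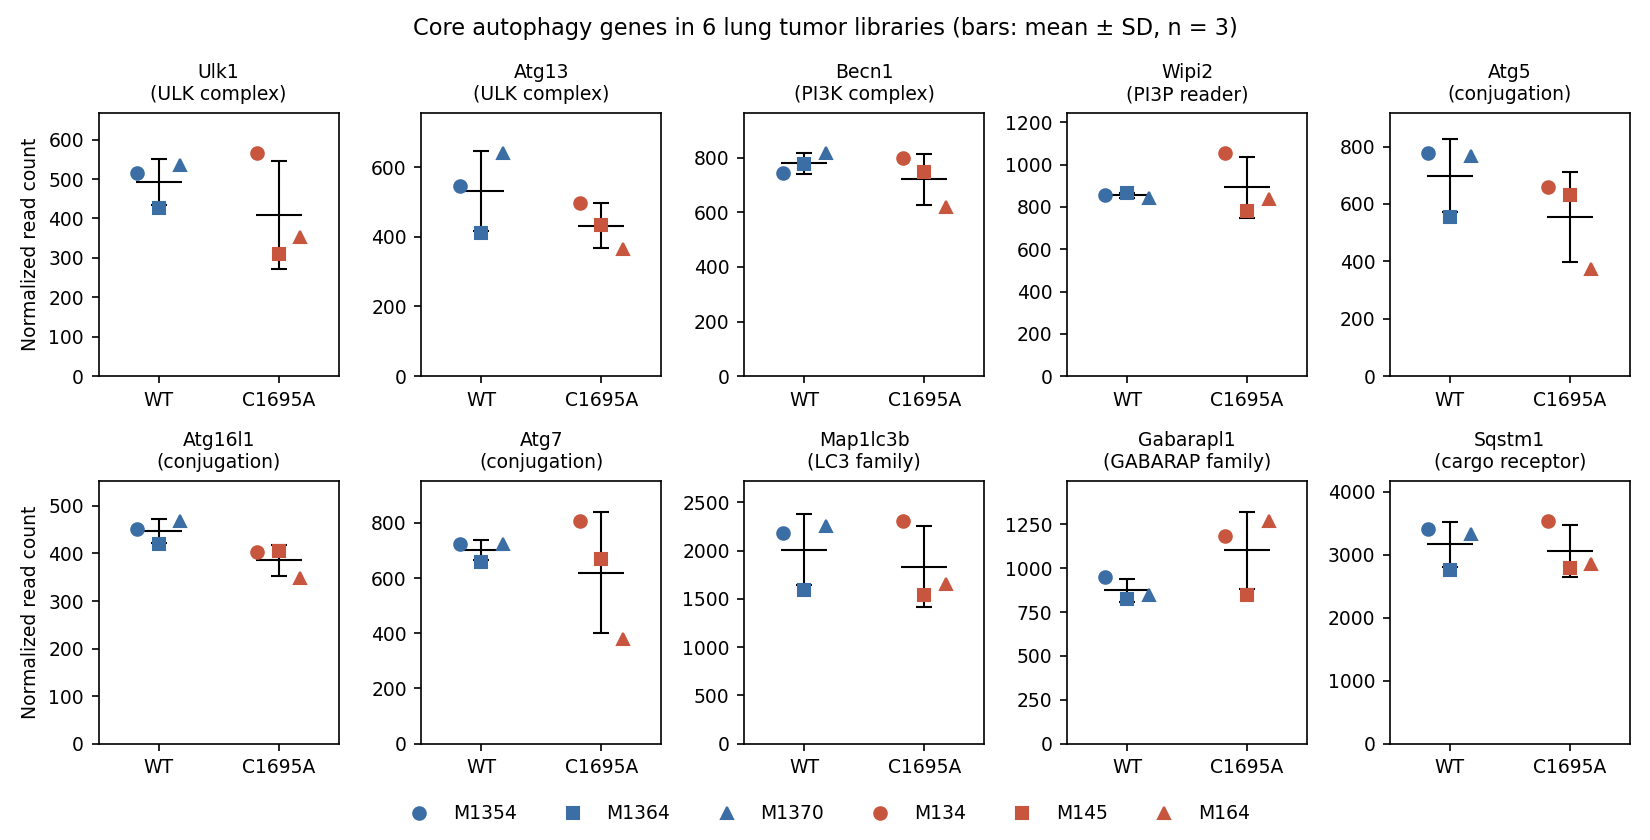
Normalized read count of each core autophagy gene (vertical axes from 0, a separate scale for each gene) in the 3 WT libraries (blue) and the 3 C1695A libraries (red), with a symbol for each mouse and bars for the mean and SD. The groups overlapped for 9 of the 10 genes, Atg16l1 being the exception.

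The precision allowed a statement on how large a difference could have been missed, given the variances of limma. These draw the variance of each gene toward a trend over all tested genes. The 95% intervals of the log2 fold changes, C1695A over WT, included 0 for all 10 genes. They reached from -0.96 (Atg5) to 0.77 (Gabarapl1), so each lay within a 2-fold difference in either direction. For Becn1, Wipi2 and Sqstm1 the interval lay within 1.5-fold. The residual SD of the core genes within genotype was 0.10 (Atg16l1) to 0.40 (Atg7) on the log2 scale, with a median of 0.25 against 0.38 over all tested genes. It was above the latter for Atg7, next to it for Atg5 and 0.35 for Ulk1. For Atg7, Atg5 and Ulk1, intervals from their own spread alone would be wider and could pass 2-fold. Such intervals were not computed. The lowest recovered read number of a core gene in any library was 176 (Atg16l1 in M164), with an exact Poisson 95% interval of 151 to 204, which covers counting error only, and the highest was 3548.

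**Figure D2:**
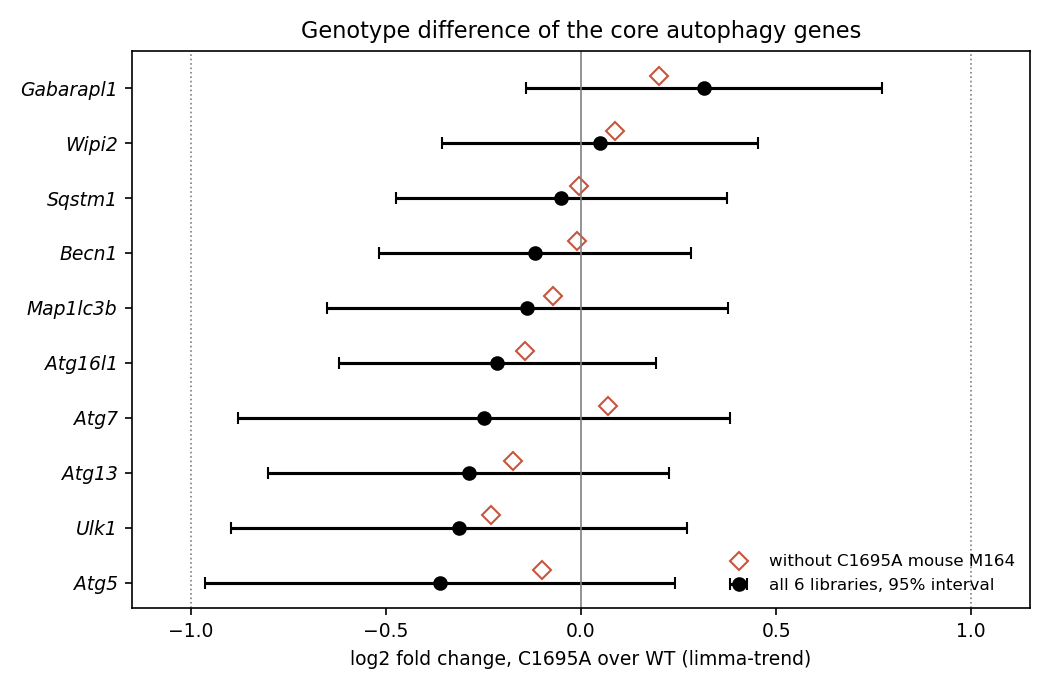
Log2 fold change of each core autophagy gene, C1695A over WT, with its 95% interval from limma-trend over 6 libraries (black), and the value without the C1695A mouse M164 (open red diamonds). Every interval crosses 0 and stays inside the dotted lines at a 2-fold difference, and Atg7 moves from -0.25 to 0.07 without M164.

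Ulk1 is the kinase that starts autophagosome formation and receives the signals of mTOR and AMPK. Its normalized counts were 514, 427 and 537 in the WT libraries and 566, 309 and 352 in M134, M145 and M164. The highest and the lowest library were both C1695A. Between genotypes the log2 fold change was -0.31 (SE 0.26, limma adjusted p = 0.773), with values from -0.57 to -0.14 when single libraries were left out.

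Atg13 is the partner of Ulk1 that links the kinase to the rest of its complex. Its counts were 545, 412 and 640 in WT and 496, 434 and 366 in C1695A. The WT library M1364 fell below M134 and M145, so the groups overlapped. C1695A differed from WT by a log2 fold change of -0.29 (SE 0.23, limma adjusted p = 0.764), with values from -0.46 to -0.14 when single libraries were left out.

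Becn1 is the regulatory subunit of the PI3P-forming kinase complex. It had counts of 742, 777 and 816 in WT and 799, 746 and 618 in C1695A. All libraries but M164 lay close together, and the log2 fold change of -0.12 (SE 0.17) shrank to -0.01 without M164. On the reference annotation, 43.9% of the exonic bases of Becn1 are overlapped by Cntd1 on the opposite strand, and Cntd1 itself had 3.96 to 11.2 counts in the 6 libraries. Whether the counting used strand is not given in the sources used here, so reads of such opposite-strand pairs cannot be told apart.

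Wipi2 binds PI3P and brings the conjugation machinery to the membrane through Atg16l1. The WT libraries gave 855, 867 and 844 counts, the narrowest WT spread of the 10 genes, and the C1695A libraries 1054, 783 and 839. The C1695A libraries lay on both sides of the WT range, and the log2 fold change was 0.05 (SE 0.18).

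Atg5, Atg16l1 and Atg7 belong to the conjugation system. Atg7 is the enzyme that activates the ubiquitin-like proteins, and Atg5, joined to Atg12, forms with Atg16l1 the complex that places LC3 on the membrane. Atg5 gave counts of 777, 554 and 766 in WT and 658, 632 and 374 in C1695A. M164 was lowest, and M134 and M145 lay inside the WT range. Its log2 fold change of -0.36 (SE 0.26, limma adjusted p = 0.756) became -0.10 without M164.

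Atg7 had counts of 724, 659 and 723 in WT and 808, 671 and 380 in C1695A. M134 was the highest of all libraries and M164 the lowest, a 2.13-fold range that was the widest among the core genes. With a log2 fold change of -0.25 (SE 0.28) with all mice and 0.07 without M164, the direction of Atg7 rested on that mouse.

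Atg16l1 was the only core gene whose genotype groups did not overlap. Its counts were 452, 420 and 469 in WT and 403, 406 and 348 in C1695A, all 3 mutant libraries being lower. A lack of overlap in either direction was found for 11.1% of all tested genes, for 6.03% with C1695A lower and for 5.07% with C1695A higher, against 1 of these 10 genes. The log2 fold change was -0.21 (SE 0.18, limma adjusted p = 0.774), with a 95% interval from -0.62 to 0.19.

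Map1lc3b encodes LC3B, which is attached to the lipid phosphatidylethanolamine on the autophagosome membrane and is the usual marker protein of the pathway. Its counts were 2188, 1588 and 2254 in WT and 2311, 1542 and 1651 in C1695A. Each genotype held libraries at both ends of the range, with M1354, M1370 and M134 high and M1364, M145 and M164 low, and the log2 fold change was -0.14 (SE 0.22).

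Sqstm1, the cargo receptor, is also a transcriptional target of NRF2 and binds Keap1, the protein that holds NRF2 in check. It gave 3404, 2758 and 3335 counts in WT and 3544, 2784 and 2859 in C1695A. The same 3 libraries were high and the same 3 low as for Map1lc3b, and the genotype means almost coincided. The log2 fold change was -0.05 (SE 0.19), with a 95% interval from -0.47 to 0.37. The 1.28-fold range over the libraries was the smallest of the core genes. On the opposite strand, Mrnip overlaps 17.3% of the Sqstm1 exonic bases and had 2.88 to 15.8 counts, and for Map1lc3b the overlap with Zcchc14 was 0.772%.

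The promoter letters of this pair, Map1lc3b and Sqstm1, are given because both had the same high and low libraries. That pattern was not particular to the pair, since M1354, M1370 and M134 were also the 3 highest libraries for Ulk1, Atg13, Atg5 and Atg7. They are the 250 bases before the RefSeq start of each gene on GRCm38.p6, 5′ to 3′ on the strand of the gene, with capitals marking GGGCGG or its reverse complement CCGCCC, the GC box bound by Sp1. Map1lc3b lies on the plus strand, chr8:121590188-121590437, and Sqstm1 on the minus strand, chr11:50210821-50211070.
Map1lc3b: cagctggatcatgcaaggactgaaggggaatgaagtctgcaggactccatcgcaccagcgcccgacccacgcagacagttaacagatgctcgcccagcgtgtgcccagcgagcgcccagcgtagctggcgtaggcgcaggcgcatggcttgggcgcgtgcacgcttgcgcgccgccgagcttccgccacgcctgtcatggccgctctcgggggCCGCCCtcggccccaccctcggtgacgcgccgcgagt
Sqstm1: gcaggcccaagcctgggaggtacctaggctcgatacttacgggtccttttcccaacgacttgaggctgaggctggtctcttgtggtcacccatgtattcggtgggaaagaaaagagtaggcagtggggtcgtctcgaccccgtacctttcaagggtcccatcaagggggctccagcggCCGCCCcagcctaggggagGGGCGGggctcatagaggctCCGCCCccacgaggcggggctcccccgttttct

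Map1lc3b held 1 GC box and Sqstm1 3. Of the 10 core genes, 8 had a RefSeq promoter entry (not Atg16l1 and Becn1), and the entry of Atg7 was not searched because it starts 28.0 kb from the nearest annotated coding transcript start. In the 7 promoters searched on both strands, the GC box was found in 6 (Atg5, Gabarapl1, Map1lc3b, Sqstm1, Ulk1 and Wipi2), against 32.7% of 32851 promoters. The E-box CACGTG was found in Atg5 (6.02% of all promoters), and the antioxidant response element core TGACNNNGC, the NRF2 motif, in Atg13 (10.2%). The CLEAR element, the longer palindrome around the E-box that TFEB binds (0.240%), the forkhead letters GTAAACA (3.17%) and the AP1 letters TGACTCA, which can overlap the antioxidant core (4.46%), were in none of the 7. These matches describe letters in the windows, not binding.

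Gabarapl1, a GABARAP family relative of LC3, was the core gene with the largest positive log2 fold change. Its counts were 949, 823 and 847 in WT and 1182, 850 and 1271 in C1695A. M134 and M164 lay above every WT library and M145 inside the WT range. The log2 fold change was 0.32 (SE 0.20, limma adjusted p = 0.738), with a 95% interval from -0.14 to 0.77, and 0.20 without M164. Gabarapl1 was also the only core gene above its own mean in M164, the library in which the heart muscle and adipose markers were highest. The difference Gabarapl1 minus Map1lc3b on the log2(value + 1) scale was -1.20, -0.95 and -1.41 in WT and -0.97, -0.86 and -0.38 in C1695A, and M134 lay within the WT range. Of the Gabarapl1 exonic bases, 28.3% are overlapped on the opposite strand by 1700101I11Rik, which was not found in the normalized read count table.

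Over the 10 core genes, high and low libraries were found in both genotypes. M164 was the lowest library for 5 genes, M145 for 3 and M1364 for 2, while M134 was the highest for 5 and M1370 for 3. M164 was below the gene mean for 9 of the 10 genes, M145 for 8, the WT library M1364 for 7, M1354 for 3, M1370 for 2 and M134 for 1. Averaged over the 10 genes, the level relative to the gene mean was 0.13, -0.09 and 0.16 in WT and 0.20, -0.14 and -0.27 in C1695A on the log2 scale. The highest and the lowest mouse were thus both C1695A.

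**Figure D3:**
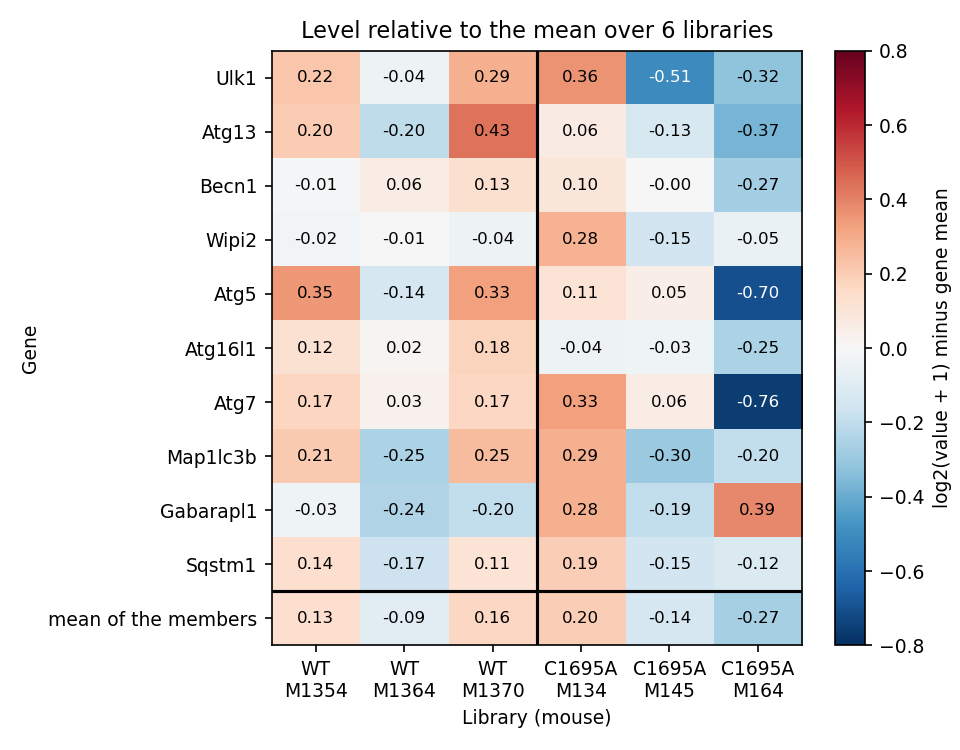
Log2(value + 1) of each core autophagy gene (rows) in each library (columns, named by genotype and mouse), minus the mean of that gene over the 6 libraries, with the mean of the 10 genes in the bottom row. Red is higher and blue lower, and M164 is blue for every gene but Gabarapl1, with the lowest values for Atg7 and Atg5.

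The log2 fold change was below 0 for 8 of the 10 core genes, with a median of -0.18. Over all tested genes 51.7% were below 0 and the median was -0.02. Without M164, 7 of the 10 were below 0 and the median was -0.04, while 51.9% of all genes were below 0. With the mean of the heart and skeletal muscle markers as a covariate 4 of the 10 were below 0, and with the mean of the adipose markers 2. Leaving out single libraries gave counts of 7 to 9, so the count moved little with M164 and more with these covariates. With the mean of the Y-linked genes as a covariate, no core gene changed direction. Those genes were at 0 in M1364 and M1370, so that fit in effect sets C1695A against M1354 alone. It therefore says little on WT mice as a group. Over all 20 alternatives, Atg13 (-0.46 to -0.0076), Atg16l1 (-0.26 to -0.06) and Gabarapl1 (0.01 to 0.49) were the core genes that kept their sign, none of them past the threshold.

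Levels were compared between genes only as normalized counts per kb of the longest coding transcript in GENCODE M21. Sqstm1 had the highest mean level, 1165 per kb, followed by Map1lc3b (730), Gabarapl1 (542) and Atg5 (267). Becn1 (172), Atg7 (170) and Wipi2 (169) overlapped in their ranges, as did Atg13 (133.8) and Atg16l1 (133), and Ulk1 was lowest with 86.5. The ranges over the 6 libraries were separate from the next gene in order only after Sqstm1, Gabarapl1 and Atg16l1. The order depended on the transcript length: with the length of all annotated exons, Map1lc3b came in rank 4, after Sqstm1, Gabarapl1 and Atg5. On that length Atg13 came in rank 5, and Atg16l1 (43.3 per kb) was lowest, below Ulk1 (69.5).

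**Figure D4:**
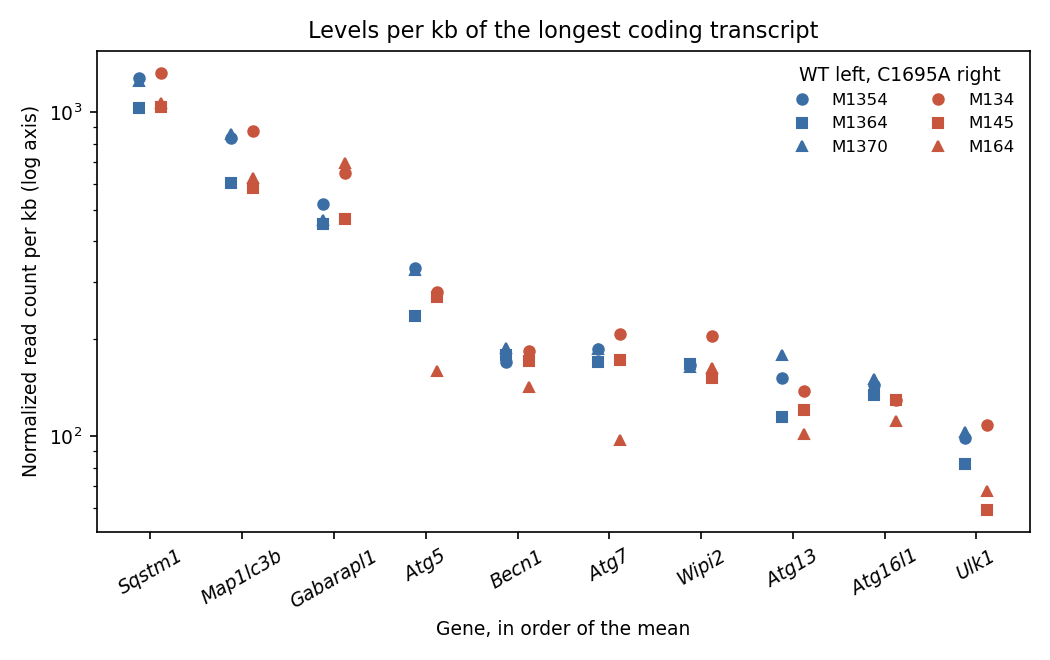
Normalized read count per kb of the longest coding transcript (log axis) for each core autophagy gene, in order of the mean over 6 libraries, with WT libraries to the left (blue) and C1695A libraries to the right (red). Sqstm1, Map1lc3b and Gabarapl1 lie above the other 7 genes in all 6 libraries.

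The genes whose profile over the 6 libraries was most like the mean profile of the core genes were, among all those tested, C2cd3, Tmem9b, Zkscan17, Abhd14b and Ubb. The root mean square difference of the centred log2 values was 0.0252 for C2cd3 and 0.0477 for Ubb, a polyubiquitin gene. Ubb had 4059, 3557 and 4056 counts in WT and 4004, 3434 and 3213 in C1695A. For Atg7, the gene with the widest range, the nearest profiles were Prkcd (0.0476), Anxa1 (0.0537) and Gm7694 (0.0617). With 6 libraries and 16640 genes, such nearness is a description only.

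The wider pathway was described with 11 lists of 126 genes by role, the core genes included, all of which were in the table and tested. By limma, edgeR and DESeq2, 0 of the 126 passed the adjusted threshold. At an unadjusted limma p of 0.05, 4 genes (3.17%) were found, all lower in C1695A, against 2.93% of all genes for that direction. The groups did not overlap for 10 genes (7.94%), 2 of them higher and 8 lower, against 11.1% of all genes. Log2 fold changes were below 0 for 95 of the 126 (75.4%), with a median of -0.14, against 51.7% and -0.02 over all tested genes. Without M164 they were below 0 for 83, with a median of -0.09, against 51.9% and -0.02 over all tested genes.

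**Figure D5:**
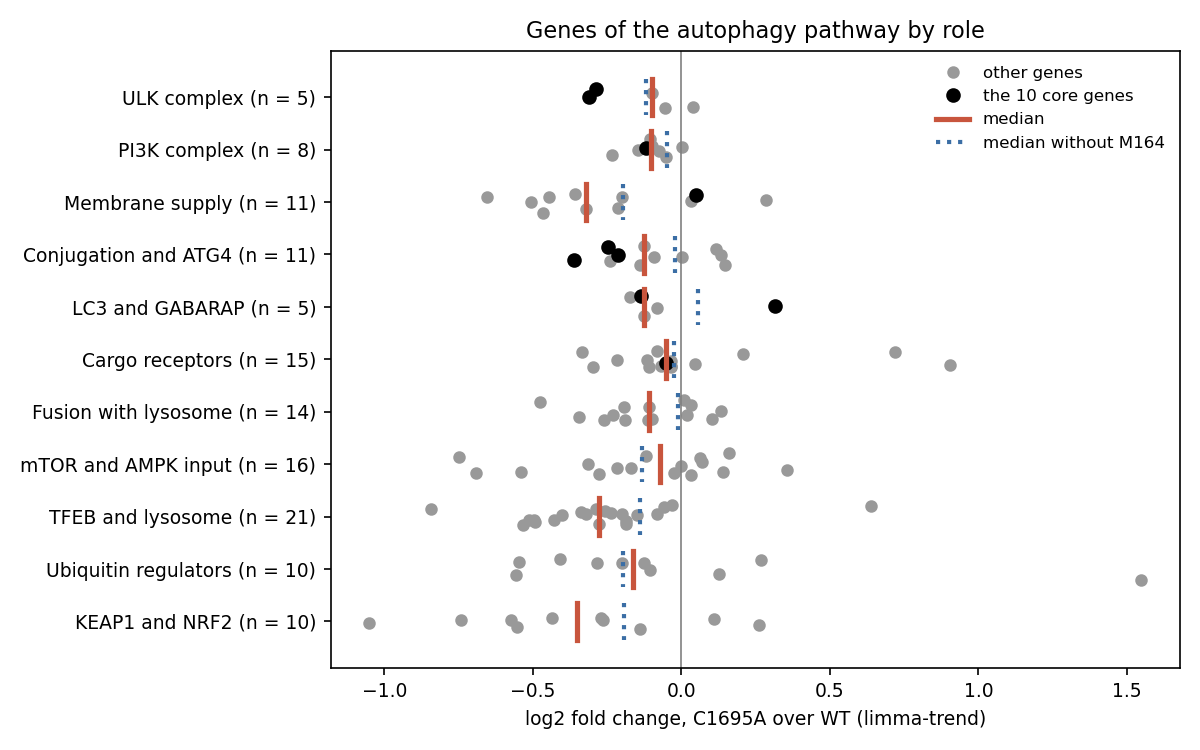
Log2 fold change, C1695A over WT, of the genes of 11 autophagy lists (rows, with the number of genes), the 10 core genes in black and the others in grey, spread vertically within a row for legibility. Red bars give the median with all 6 libraries and dotted blue bars without M164, and with all libraries the medians of the KEAP1 and NRF2 (-0.35), membrane supply (-0.32) and lysosomal (-0.28) lists are lowest, but without M164 that of the ubiquitin regulators (-0.20) is as low as membrane supply (-0.20).

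In the early complexes no other subunit passed either. Ulk2, the close relative of Ulk1, had 1319, 995 and 1306 counts in WT and 1162, 1046 and 1259 in C1695A. The median log2 fold change was -0.10 for the 5 genes of the ULK complex and -0.10 for the 8 of the lipid kinase complex. Leaving out single libraries gave -0.32 to 0.00098 and -0.19 to -0.05, and the adipose covariate gave 0.11 and 0.07. Neither direction held with that covariate, whose levels separate the genotypes. In the latter, Uvrag, which directs the complex to late steps, had the lowest p (log2 fold change -0.23, SE 0.18, limma adjusted p = 0.764).

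Among the 11 genes that supply membrane, the median log2 fold change was -0.32, and -0.20 without M164. With the muscle covariate it was 0.06 and with the adipose covariate 0.05, so the direction turned with these covariates, whose levels separate the genotypes. Tmem41b, a lipid scramblase of the endoplasmic reticulum, gave 876, 793 and 899 counts in WT and 792, 661 and 416 in C1695A. The groups did not overlap, but M134 (791.7) and M1364 (793.1) almost met. Its partner Vmp1 gave 4816, 8754 and 5647 counts in WT and 5008, 4970 and 2447 in C1695A, with overlap. Neither passed (limma adjusted p = 0.738 for both).

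The 11 conjugation genes had a median log2 fold change of -0.13, and the 5 LC3 and GABARAP genes -0.13. Atg3, the enzyme that hands LC3 to the lipid, differed by 0.13 on the log2 scale (SE 0.18), and Gabarapl2 by -0.17 (SE 0.21). Without M164 the LC3 and GABARAP median was 0.05, so its sign also rested on that mouse.

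Among the 15 cargo receptors the median log2 fold change was -0.05, close to the value of Sqstm1. Bnip3, a receptor for mitochondria that is induced by low oxygen, had 856, 946 and 800 counts in WT and 1241, 1019 and 3374 in C1695A. All 3 C1695A libraries were above WT, with M164 far higher than the others, and the log2 fold change of 0.91 (SE 0.40, limma adjusted p = 0.738) was 0.38 without that mouse. With the muscle markers as a covariate the value was -0.26. Of the 14 genes for fusion with the lysosome (median -0.11), Stx17, the SNARE of the autophagosome, had 1256, 946 and 1435 counts in WT and 1102, 807 and 713 in C1695A, with overlap.

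The upstream list of 16 mTOR and AMPK genes had a median log2 fold change of -0.07 and contained the gene with the lowest p of the pathway. Prkab1, a regulatory subunit of the energy sensor AMPK, gave 706, 917 and 976 counts in WT and 577, 529 and 489 in C1695A. Every C1695A library was below every WT library. On the log2 scale the difference was -0.69 (SE 0.19), with an unadjusted limma p of 0.00603 that did not hold after adjustment over all genes (adjusted p = 0.738). It was -0.63 without M164 and -0.41 with the Y-linked genes as a covariate, a fit in which M1354 alone in effect stands for WT. Ddit4, an mTOR inhibitor induced by stress, gave 384, 415 and 394 counts in WT and 359, 341 and 166 in C1695A.

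TFEB is the transcription factor that switches on lysosomal and autophagy genes. Tfeb itself had 80.0, 51.8 and 61.1 counts in WT and 133, 88.0 and 83.2 in C1695A. All 3 C1695A libraries were above WT, with a log2 fold change of 0.64 (SE 0.32, limma adjusted p = 0.738). It was 0.76 without M164 and 0.30 with the Y-linked genes as a covariate, where M1354 alone in effect stands for WT. The 20 other genes of its list were Tfe3, Mitf and lysosomal genes. All had log2 fold changes below 0, against 51.7% of all tested genes, and the list median was -0.28. Without M164, 15 of the 21 were below 0, against 51.9% of all tested genes, and the list median was -0.14. With the muscle or the adipose markers as a covariate the list median was 0.05. Hexa, a lysosomal hexosaminidase subunit, had the lowest p of the list, with 1411, 940 and 1525 counts in WT and 1011, 927 and 740 in C1695A. No gene of this list passed. The macrophage and alveolar type 2 markers, from cells rich in lysosomes and lysosome-related organelles, were lowest in M164, and their part in the lysosomal values was not tested.

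Sqstm1 connects autophagy to KEAP1 and NRF2, which control the antioxidant genes. The 10 genes of that list had a median log2 fold change of -0.35, and -0.19 without M164. The genes below 0 were 8 and 9, against 51.7% and 51.9% of all tested genes. With the muscle covariate the median was -0.09 and with the adipose covariate -0.14. Gclc, the catalytic subunit for the limiting step of glutathione synthesis, gave 18494, 29107 and 22790 counts in WT and 12177, 16667 and 6799 in C1695A. Its groups did not overlap, and the log2 fold change was -1.05 (SE 0.36, limma adjusted p = 0.738), -0.70 without M164 and -0.17 with the muscle covariate. Txnrd1, a thioredoxin reductase, gave 2406, 1602 and 2495 counts in WT and 1542, 1611 and 1222 in C1695A, with overlap. The groups did not overlap for 3 of the 10 genes, against 11.1% of all genes. The other two, Srxn1 (-0.27, and -0.19 without M164) and Gsr (-0.43, and -0.23 without M164), were named after their values were seen, as were Nqo1 (0.26), Keap1 (0.11) and Nfe2l2 (-0.57), whose groups overlapped. Sqstm1 itself was at -0.05.

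The last list held 10 ubiquitin enzymes tied to autophagy, with a median of -0.16. Usp24 gave 1194, 895 and 1225 counts in WT and 887, 1054 and 1125 in C1695A, and its RNA level did not separate the genotypes (log2 fold change -0.11, SE 0.19). Usp10, a deubiquitinase that acts on Becn1 together with Usp13, gave 692, 718 and 855 counts in WT and 484, 624 and 451 in C1695A. The groups were separate, with a log2 fold change of -0.55 (SE 0.20, limma adjusted p = 0.738). Usp13 had 94.9 counts in M1370, 107 in M1364 and somewhat more in M1354, and 337, 83.1 and 1226 in C1695A. The highest value was in M164 and the next in M134, the 2 libraries with the highest heart muscle markers, and the log2 fold change of 1.55 was 0.59 without M164 and -0.71 with the muscle markers as a covariate.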

How the data were processed

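RNA of 6 lung tumor specimens, 3 for each genotype, was sequenced as 150-bp paired reads. Per the labels, reads were aligned with HISAT2 2.1.0 to mm39. The read counter, annotation, strandedness and gene filter are not given in the sources used here. The deposited table holds normalised values (unit: signal) that the authors made from gene counts with 1 factor per library: all 107922 values were whole multiples of a library step within 1e-06, although for M145 the step lies close to 1, and these whole reads (7167000 to 14650273 per library) were used for edgeR and DESeq2. The methods of the study name DESeq.

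Values were tested as log2(value + 1) with limma-trend (limma 3.58.1, R 4.3.3), without covariates, on genes with at least 10 in at least 3 libraries. Fold changes are on that scale. Fits with edgeR 4.0.16 and DESeq2 1.42.0, other pseudocounts, filters, scalings and covariates, and without each library, were alternatives. Marker lists were compared by an exact two-sided permutation test, which cannot go below 0.1. The fitting script was tested on simulated data. P-values rest on the spread between 3 mice per genotype, and limma draws the variance of each gene toward a trend over all tested genes.

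The members and lists were chosen with earlier results of these data known. Genes named are the 10 members, the 2 other genes of lowest p in each list, the 5 and 3 nearest profiles, Usp24 and markers that stood apart. Srxn1, Gsr, Nqo1, Keap1 and Nfe2l2 were added after their values were seen. Promoters are RefSeq's (GRCm38.p6), and lengths and overlaps GENCODE M21 (GRCm38), another build than mm39. No column of values was left unmapped.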

Additional observations from a re-analysis of the deposited data

How the results depend on the processing

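Under 20 alternatives, none of 200 values of the core genes passed the adjusted threshold, and 16 changed sign, as did 29 of 460 values of the other named genes, none of which passed. One alternative kept only the mice with Y-linked reads, which leaves M1354 as the lone WT mouse, assumed to vary like the C1695A mice, so a missed threshold there says little. The fit with the Y-linked genes as a covariate likewise rests on M1354 among the WT mice. The median log2 fold change of the core genes ranged from -0.28 to 0.13. The count over all genes, 0 by limma, was 36 by DESeq2, and 0 to 40 when single libraries were left out (5 without M1354, 40 without M134, all higher). No paired analysis was possible because the mouse numbers are not shared between the genotypes. Counting error was at most 7.54% of a count for the core genes.

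The log2 fold changes that turned sign were, with quantile normalization, Sqstm1 0.052, Ulk2 0.058 and Usp24 0.0023. With array weights they were Wipi2 -0.038 and Atg3 -0.011. With the muscle covariate they were Becn1 0.13, Atg5 0.17, Atg7 0.43, Sqstm1 0.0044, Atg101 0.15, Rubcn 0.22, Tmem41b 0.056, Vmp1 0.19, Atg3 -0.21, Gabarapl2 0.054, Map1lc3a 0.39, Bnip3 -0.26, Ddit4 0.25 and Usp13 -0.71. With the adipose covariate they were Ulk1 0.11, Becn1 0.11, Atg5 0.12, Atg7 0.40, Map1lc3b 0.16, Sqstm1 0.14, Atg101 0.30, Rubcn 0.18, Tmem41b 0.049, Atg3 -0.13, Gabarapl2 0.11, Map1lc3a 0.53 and Ddit4 0.12. The cause was not tested. The muscle and adipose covariates separate the genotypes, so their fits cannot divide a difference between genotype and markers.

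Leaving out single libraries gave ranges of -0.57 to -0.14 for Ulk1, -0.46 to -0.14 for Atg13, -0.20 to -0.01 for Becn1, -0.52 to -0.10 for Atg5, -0.26 to -0.14 for Atg16l1, -0.32 to -0.02 for Map1lc3b, 0.20 to 0.49 for Gabarapl1, 0.59 to 2.53 for Usp13, -0.32 to 0.027 for Atg101, -0.017 to 0.22 for Atg3, -0.47 to 0.070 for Atg7, -0.42 to 0.12 for Map1lc3a, -0.24 to 0.019 for Rubcn, -0.16 to 0.014 for Sqstm1, -0.19 to 0.016 for Ulk2 and -0.077 to 0.14 for Wipi2. The mean log2 differences of the marker lists ranged from -0.52 to 0.028 for alveolar type 1, -0.11 to 0.26 for endothelium, -0.0070 to 0.66 for fibroblast and -0.17 to 0.16 for proliferation genes.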
